A study of Helianthus annuus with 180 samples.

Results

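The genes described here are 7 sunflower genes that the study's functional annotation places under cellular response to blue light, out of 46480 genes in each of its count tables. They were taken by their identifiers. The study lists these 7 for field stems, on the east side at ZT0 and ZT4 or on the west side at ZT8, and also for the lit side under blue light, so the genes were chosen by these side differences in measured levels, which are given below as a description with no test. Of the 7, 6 have neighboring numbers on chromosome 3. Their closest Arabidopsis matches in the study's annotation are EARLY LIGHT-INDUCIBLE PROTEIN 1 (ELIP1) for Ha412HOChr03g0133601, Ha412HOChr03g0133781 and Ha412HOChr03g0133811, called ELIP1-like a, b and c here, and ELIP2 for Ha412HOChr03g0133691, Ha412HOChr03g0133701 and Ha412HOChr03g0133761, called ELIP2-like a, b and c. The remaining gene, Ha412HOChr07g0326191 on chromosome 7, matches the sigma factor gene SIG5 and is called SIG5-like. The whole annotation term has 13 genes in the lists, and the other 6 are described after the members.

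In Arabidopsis and other plants, early light-induced proteins sit in the thylakoid membrane of the chloroplast, are related to the light-harvesting chlorophyll proteins, and are made when plants meet strong, blue or ultraviolet light. They are thought to protect the photosynthetic apparatus while chlorophyll is exposed. SIG5 is a nuclear-encoded subunit that directs the plastid RNA polymerase to certain chloroplast promoters, and in Arabidopsis its transcript is induced by blue light.

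Stem peels of wild-type plants of the inbred line HA412-HO, 2 weeks old, were measured by RNA-seq of polyadenylated RNA, and peels of 2 plants were pooled for each library. For phototropism, chamber-grown plants faced blue lamps on one side from ZT3 (hours after lights on), and the lit and shaded sides were sampled at 9 times from ZT3 to ZT21, with 6 libraries per side and time. For heliotropism, peels from the side facing east and the side facing west were taken from sun-following field plants every 4 hours for 2 days from dawn (ZT0), with 3 libraries per side, time and day, 72 in all. A peel holds surface and deeper stem cells, so more RNA per cell and more expressing cells cannot be told apart.

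Total counts per library ranged from 4485611 to 28394943 for phototropism and from 5074975 to 30834562 in the field. All 7 genes passed the filter on low counts in both experiments. Levels are CPM, the count scaled by library total and TMM factor, and they are compared only within a gene, since CPM is not divided by transcript length. The deposited counts are estimates in which reads that fit several transcripts are divided among them. Over the 7 genes, between 0% and 19.4% of libraries had a whole number (within 0.001). The highest share was that of ELIP2-like a in the field, where all 14 whole values were 0. SIG5-like, on another chromosome, was at 0% and 1.39%, so fractions alone do not show sharing among the near copies. How reads were divided among those copies is uncertain, and the sum of the 6 is given beside them. That sum leaves out the ELIP2 homologs Ha412HOChr03g0133631 and Ha412HOChr03g0133751, numbered among them, with 165015 and 206552 phototropism counts. It can therefore still depend on the division. The marker lists for epidermis (13 genes), vascular tissue (10 genes) and photosynthesis (8 genes) had no gene at 0 in every library.

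Before the lamps, at ZT3, the 2 sides had like levels of all 7 genes. ELIP1-like c was at 33.9 to 199.6 CPM on the 6 future lit sides and at 30.5 to 182 CPM on the 6 shaded sides, and in both groups the highest library was replicate 2. SIG5-like was at 35.6 to 63.9 CPM and at 36.004 to 75.8 CPM. None of the 7 passed edgeR's quasi-likelihood test at ZT3 (1 gene of 32644 did in either direction, 0.00306% of those tested), with log2 differences, lit over shaded, from -0.64 (SE 0.71, ELIP2-like a) to 0.19 (SE 0.29, ELIP1-like c). The ranges overlapped for every member.

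After 1 hour of blue light, at ZT4, all 7 were far higher on the lit side. ELIP1-like a, at 0.181 to 3.497 CPM on that side at ZT3, stood at 386, 672, 580.4, 336, 459 and 534 CPM. ELIP1-like b rose from 1.09 to 4.02 CPM at ZT3 to 156 to 297 CPM, and ELIP1-like c to 553 to 1174 CPM. SIG5-like stood at 363, 386, 351, 220.4, 442 and 382 CPM. No lit library at ZT4 lay within the ZT3 range of its gene. The share of all genes with ranges apart in this way is not given here. By edgeR 8.84% of all genes were called higher at ZT4 than at ZT3 on the lit side.

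The change from ZT3 to ZT4 on the lit side was 8.19 on the log2 scale (SE 0.56) for ELIP1-like a, 6.49 (SE 0.44) for ELIP1-like b and 3.14 (SE 0.31) for ELIP1-like c. It was 8.62 (SE 0.51), 5.97 (SE 0.44) and 5.52 (SE 0.43) for ELIP2-like a, b and c, and 3.01 (SE 0.14) for SIG5-like. The median over all genes was 0.02. The lit libraries entered the side comparison that chose the genes, so their changes from ZT3, here and at later times, are a description with no test. ELIP1-like c and SIG5-like had the smallest folds. For ELIP2-like a the fold rests on ZT3 libraries with at most 8.1 counts, 2 of them at 0.

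On the shaded side, too, levels were higher at ZT4 than at ZT3, and that comparison ran against the direction by which the genes were chosen. No group without the lamps was compared, so blue light and time of day cannot be told apart in a change from ZT3 on either side. At ZT4 ELIP1-like a was at 26.9, 52.4, 37.8, 24.7, 19.0 and 7.84 CPM on the shaded side, above all 6 ZT3 values there (0.225 to 5.94 CPM). SIG5-like was at 71.8 to 112 CPM, against 36.004 to 75.8 CPM at ZT3, so a single pair of values crossed. All 7 members rose by edgeR (Benjamini-Hochberg over all genes), by 4.02 (SE 0.49) for ELIP1-like a, 2.47 (SE 0.40) for ELIP1-like b, 1.03 (SE 0.29, adjusted p = 0.0229) for ELIP1-like c, 3.60 (SE 0.47), 2.66 (SE 0.39) and 2.32 (SE 0.38) for ELIP2-like a, b and c, and 0.96 (SE 0.13) for SIG5-like. Only 2.07% of all genes were called higher there. ELIP1-like c no longer passed when replicate 1, 3, 4 or 5 was left out, at 0.94 to 1.07. At ZT5 all but ELIP1-like c passed, with 3.4% of genes called higher, and ELIP1-like c was at 0.75 (SE 0.29, adjusted p = 0.106).

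**Figure D1:**
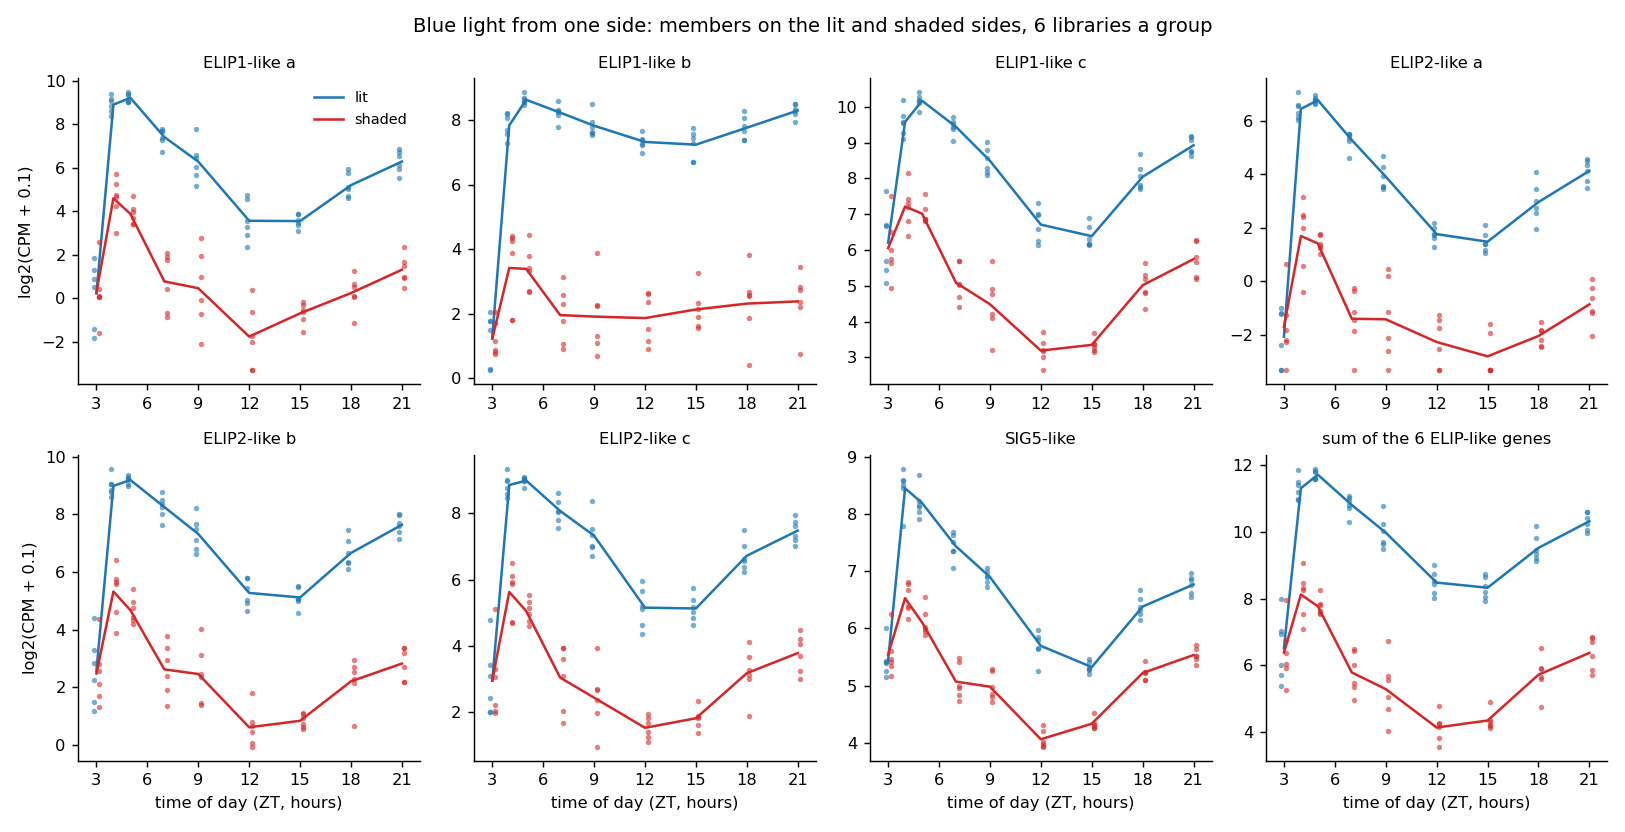
Level of each member and of the summed ELIP-like genes on the lit (blue) and shaded (red) sides, as log2(CPM + 0.1) against time of day in hours. Points are libraries, 6 per side and time, and lines join the means. The sides coincide at ZT3 and are apart at every later time, and on both sides the means are high at ZT4 and ZT5, low at ZT12 and ZT15 and higher at ZT21, except for ELIP1-like b on the shaded side, whose means after ZT5 span 3.97 to 6.12 CPM.

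From ZT4 to ZT21 the lit and shaded ranges of every member were apart, a description since the side difference chose them (2.25%, 3.59%, 5.79%, 6.33%, 4.21%, 3.12%, 3.14% and 2.93% of all genes did so with the lit side higher, in order of time). The summed ELIP-like level at ZT4 was 2596 ± 638 CPM (SD, n = 6) on the lit side and 306 ± 141 CPM on the shaded side, 8.48-fold apart. At ZT5 it was 3364 ± 317 against 222 ± 45.3 CPM, 15.2-fold. At ZT7 it was 1814 ± 318 against 59.5 ± 24.8 CPM, a ratio of 30.5, the largest of the 9 times. At ZT12 the ratio was 20.2 and at ZT21 14.9.

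The lit over shaded difference varied among the members. At ZT7 it was 6.33 (SE 0.52) on the log2 scale for ELIP1-like a, 6.56 (SE 0.47) for ELIP2-like a, 6.15 (SE 0.43) for ELIP1-like b, 4.30 (SE 0.33) for ELIP1-like c and 2.35 (SE 0.14) for SIG5-like. At ZT15 SIG5-like was down to 0.99 (SE 0.14), whereas the ELIP-like genes were at 3.07 to 5.10. On the shaded side ELIP1-like c was by ZT7 below its ZT3 level, by 1.13 on the log2 scale (SE 0.29), as was SIG5-like, by 0.49 (SE 0.14). Both were called lower, where 6.52% of all genes were, and without replicate 2 neither was called. Low shaded levels after ZT3 run with the choice of the genes, so falls on that side are a description with no test.

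The widening from ZT4 to ZT7 was fitted as a change of the side difference. Side differences chose the genes, so their changes between times are a description with no test. By edgeR all 6 ELIP-like genes were called, with an increase of 1.75 (SE 0.52, ELIP2-like c) to 2.202 (SE 0.62, ELIP1-like a) on the log2 scale. SIG5-like was at 0.42 (SE 0.19) and was not called. Without replicate 1, 1 of the 6 remained past the threshold, ELIP1-like c, and the other 5 had increases of 1.48 to 2.03. With the paired replicates as a block all 7 members passed, SIG5-like included. Over all genes 4.25% were called for such an increase. From ZT7 to ZT15, also a description, only SIG5-like was called, with a decrease of 1.36 (SE 0.19, against 1.3% of all genes). The ELIP-like genes were at -1.93 to -1.05. With the replicate block 3 members passed there, by DESeq2 2 and by limma on the deposited CPM 6. From ZT15 to ZT21 no member passed by edgeR, nor did any of the 32644 genes (0%), of which 2026 were at an unadjusted p under 0.05. DESeq2 called 13 genes higher and 3 lower there, and by limma 1 member passed. The shares of all genes called with the block and by limma, and by DESeq2 from ZT7 to ZT15, are not given here. Those counts show only whether the members' calls held.

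At ZT12 the lit side was lower again, and the members parted. The mean of ELIP1-like a was 602 CPM at ZT5 and 14.0 CPM at ZT12, 2.32% of the former, and that of ELIP2-like a was at 3.07%. ELIP2-like b and c were at 6.87% and 7.49%, ELIP1-like c at 9.40% and SIG5-like at 17.6%. ELIP1-like b kept 40.7%, with lit libraries at 151, 203, 170.1, 167, 152 and 126 CPM at ZT12. Its lowest value in a lit library after ZT3 was 104 CPM, at ZT15.

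Against ZT3, ELIP1-like b was still 5.95 (SE 0.44) higher on the log2 scale on the lit side at ZT12 and 5.91 (SE 0.44) at ZT15. ELIP1-like c was at 0.29 (SE 0.29) and -0.06 (SE 0.29), and SIG5-like at 0.24 (SE 0.13) and -0.14 (SE 0.14). The other 4 members lay between these, at 1.90 to 3.89 at ZT12 and 1.81 to 3.61 at ZT15.

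Levels on the lit side were higher again at ZT18 and ZT21, hours that had been night in the plants' earlier light cycle. ELIP1-like a was at 8.48 to 14.5 CPM at ZT15, at 24.7 to 61.5 CPM at ZT18 and at 46.0 to 118 CPM at ZT21, with no overlap between ZT15 and ZT18. SIG5-like was at 36.5 to 44.2, 70.5 to 102 and 93.9 to 125 CPM. At ZT21 all 7 members were above ZT3 on the lit side, by 1.31 (SE 0.14, SIG5-like) to 6.93 (SE 0.45, ELIP1-like b) on the log2 scale. Of all genes 8.94% were called higher there.

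On the shaded side 5 of the 7 were called below ZT3 at ZT12, where 15.7% of all genes were called lower. Low shaded levels run with the choice of the genes, so these falls are a description with no test. ELIP1-like c fell by 3.08 on the log2 scale (SE 0.32), from 30.5 to 182 CPM at ZT3 to 6.14 to 13.0 CPM, with no overlap. SIG5-like fell by 1.52 (SE 0.14) to 15.1 to 19.8 CPM. Not called were ELIP1-like b, at 0.66 (SE 0.42), and ELIP2-like a, with 4 of 6 libraries under 3 counts, at -1.07 (SE 0.77). By ZT21 only ELIP1-like b differed from ZT3 there, and it was higher, by 1.28 (SE 0.40, adjusted p = 0.0214), with 6.97% of all genes called higher. That call was lost without replicate 1, 2 or 4 (1.19 to 1.36) and by limma.

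**Figure D2:**
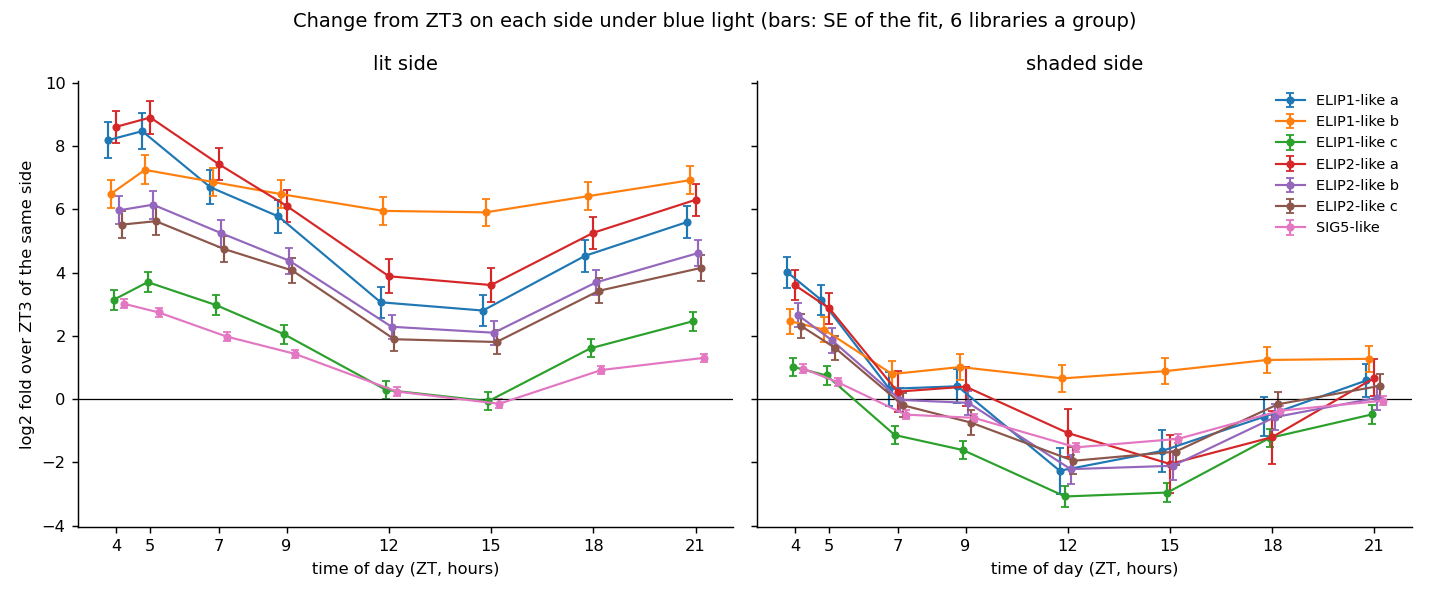
Log2 fold of each member over ZT3 of the same side, on the lit side (left) and the shaded side (right), against time of day in hours, with the standard error of the edgeR fit (6 libraries per group). On the lit side ELIP1-like b lies between 5.91 and 7.25 from ZT4 on, while ELIP1-like c and SIG5-like lie near 0 at ZT12 and ZT15. On the shaded side all members lie above 0 at ZT4 and 6 lie below it at ZT12.

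The summed level of the photosynthesis markers (light-harvesting proteins and others) was 1719 to 2213 CPM on the lit side and 1971 to 2867 CPM on the shaded side at ZT4, and 1 of the 7 measured was called higher on the lit side and 3 lower. At ZT12 the ranges were 1472 to 2016 and 1115 to 1460 CPM, with 3 higher and 0 lower. The epidermis markers at ZT4 were at 178 to 530 and 219 to 359 CPM (1 of 12 measured called higher) and the vascular ones at 507 to 922 and 574 to 1008 CPM (0 of 10 called). Over all genes 5.67% were called higher on the lit side and 5.15% lower at ZT4, and 9.39% and 7.31% at ZT12. The markers' part in the members' differences was not tested.

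In field stems all 7 genes had a daily course, high in the morning and lowest in the first part of the night. ELIP1-like c on the east side was at 429 to 519 CPM at ZT0, 372 to 573 at ZT4, 89.3 to 141 at ZT8, 4.52 to 9.63 at ZT12, 1.55 to 2.63 at ZT16 and 37.8 to 76.6 at ZT20. From ZT8 on, the 6 values of each time lay apart from those of the time before. SIG5-like on that side was at 88.4 to 116, 88.6 to 162, 42.7 to 54.0, 11.3 to 15.1, 5.89 to 10.1 and 36.3 to 55.2 CPM. The summed ELIP-like level fell from 1105 ± 110 CPM (SD, n = 6) at ZT0 to 4.24 ± 0.826 CPM at ZT16 on the east side and from 707 ± 125 to 4.94 ± 1.66 CPM on the west.

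A 24-hour cosine fitted to CPM passed for all 7 members on both sides. On the east and west 74% and 69.6% of all genes passed too, so passing was common. High east levels in the morning run with the choice of the genes, so the east fits are a description with no test. High west levels then run against it. Adjusted p on the west ran from 9.05e-16 to 2.03e-06 (F test, Benjamini-Hochberg over all genes). The share of variance fitted (r2) was 0.585 (ELIP1-like b, west) to 0.911 (SIG5-like, west). In every member the fitted amplitude exceeded the fitted mean on both sides, so the curves reach negative CPM. They mark a rhythm and not its shape, and peak times from samples every 4 hours are approximate. The fitted peak on the east was earliest for ELIP2-like c, at 1.06 h after dawn, and latest for ELIP1-like b, at 3.17 h. On the west the earliest was again ELIP2-like c, at 1.74 h, and the latest ELIP1-like a, at 4.69 h, and SIG5-like peaked at 2.38 h on the east and 3.33 h on the west. The west peak was the later one for each member, which the choice of genes high on the east in the morning and on the west in the afternoon favors, so that order was not tested.

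Time by time, the members moved together except in the early morning. All 7 fell from ZT4 to ZT8 and from ZT8 to ZT12 on both sides (16.4% and 10.9% of genes were called lower on the east and 16.1% and 12.8% on the west). The east fall to ZT8 and the west fall to ZT12 run with the choice of the genes, so those calls are a description. The west fall to ZT8 and the east fall to ZT12 run against it. The steepest fall was that of ELIP1-like a from ZT8 to ZT12, by 6.31 on the log2 scale on the east (SE 0.34) and 6.33 on the west (SE 0.31). From ZT12 to ZT16 5 of 7 fell again on the east and 6 of 7 on the west, where 17.7% and 18.1% of genes were called lower, and those not called included ELIP2-like a on both sides, at 0 in 3 of 6 east libraries and 5 of 6 west libraries at ZT16.

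The levels came back in the dark, before dawn. From ZT16 to ZT20 all 7 members rose on both sides, where 7.6% of genes on the east and 8.21% on the west were called higher. ELIP2-like c went from 0.554 to 1.43 CPM to 25.9 to 68.9 CPM on the east, a log2 change of 5.70 (SE 0.29, adjusted p = 8.82e-26), and from 1.15 to 2.18 to 8.18 to 25.8 CPM on the west, a change of 3.59 (SE 0.27, adjusted p = 2e-17). SIG5-like rose by 2.35 (SE 0.15) on the east and 2.25 (SE 0.16) on the west. From ZT20 to dawn (ZT0) all 7 rose again, by 1.21 (SE 0.14, SIG5-like) to 4.13 (SE 0.34, ELIP2-like a) on the east and by 1.44 (SE 0.14, SIG5-like) to 4.69 (SE 0.44, ELIP2-like a) on the west, where 9.42% and 9.8% of genes were called higher. The east rise to dawn runs with the choice of the genes, so its calls are a description, and the west rise runs against it.

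After dawn the ELIP-like genes split in the same way on both sides. Side differences at ZT0 and ZT4 chose the genes, so changes between these times are a description with no test. From ZT0 to ZT4 ELIP1-like b rose by 1.47 (SE 0.21) on the east and 1.71 (SE 0.22) on the west, ELIP1-like a by 0.76 (SE 0.20) and 1.69 (SE 0.21), and ELIP2-like a by 0.88 (SE 0.27) and 0.99 (SE 0.28). ELIP2-like c fell by 0.96 on the east (SE 0.20) and 0.79 on the west (SE 0.20), its east libraries going from 278 to 346 CPM to 105 to 217 CPM. ELIP1-like c, ELIP2-like b and SIG5-like passed on neither side, with values from -0.28 to 0.31. At these hours 18.3% of genes were called higher and 19.5% lower on the east, and 17.6% and 19.6% on the west, so calls in both directions were common. Without replicate 2, ELIP1-like b alone was called higher on the east, and on day 2 alone ELIP2-like c was not called on either side (-0.55 and -0.18).

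**Figure D3:**
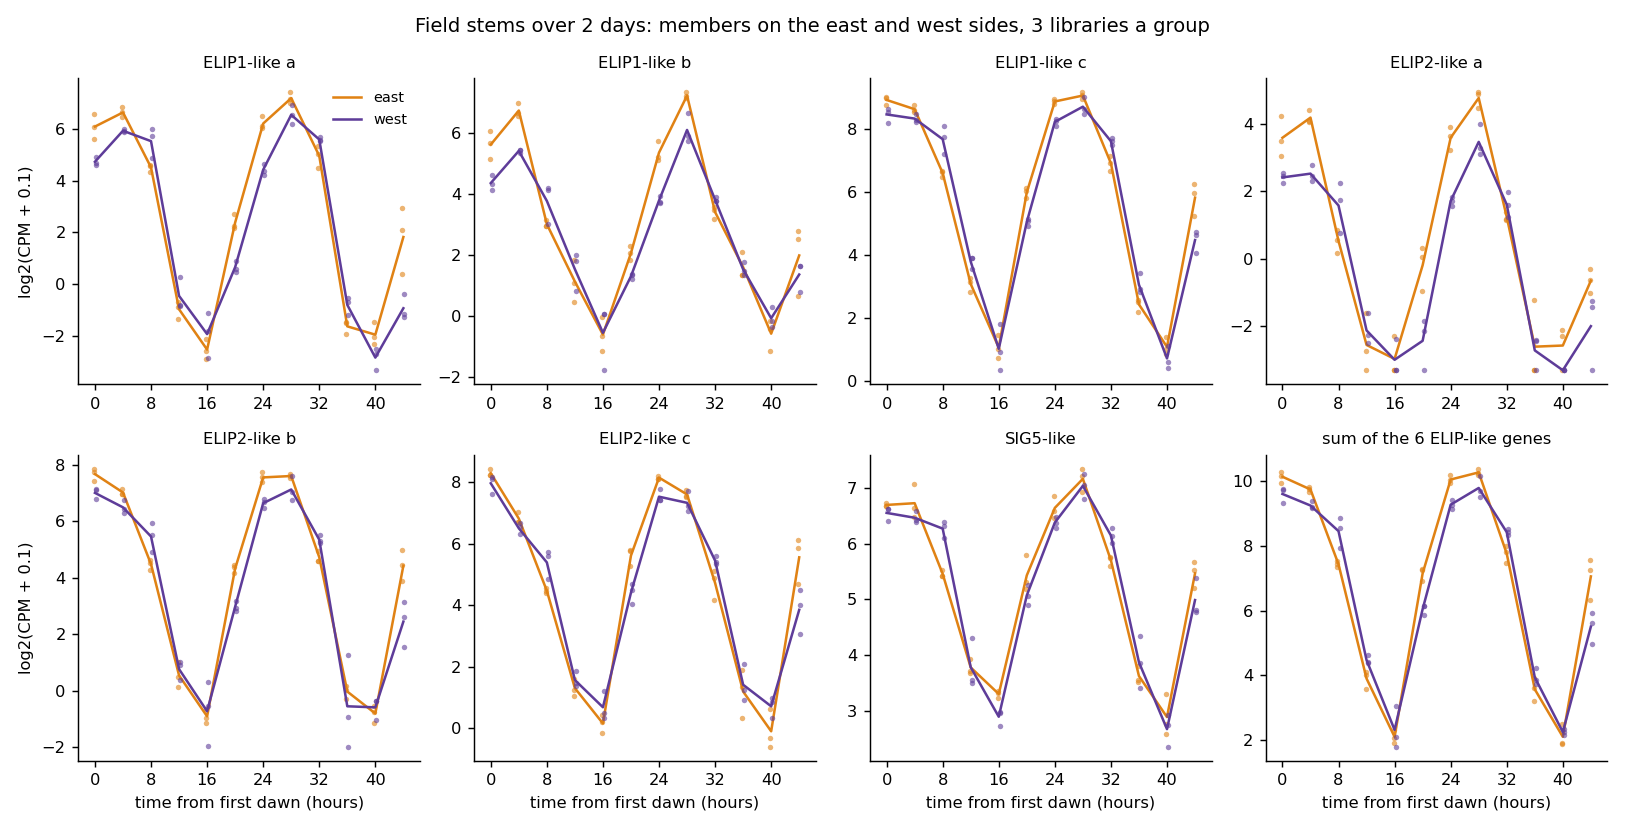
Level of each member and of the summed ELIP-like genes on the east (orange) and west (purple) sides of field stems, as log2(CPM + 0.1) against hours from the first dawn. Points are libraries, 3 per side and time, and lines join the means. Levels are high near dawn and at ZT4 on both days and low 12 and 16 hours after each dawn, and over both days the mean of every member is higher at 20 hours than at 16 hours on each side.

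The side differences at ZT0, ZT4 and ZT8 chose the genes. At ZT0 the summed ELIP-like level was 991 to 1267 CPM on the east and 569 to 864 CPM on the west, 1.56-fold apart. At ZT4 the ranges were 821 to 1340 and 577 to 1153 CPM, and at ZT8 163 to 256 and 245 to 471 CPM, with the west 1.81-fold higher. The east excess at ZT0 was largest in ELIP1-like a, ELIP1-like b and ELIP2-like a, at -1.59, -1.42 and -1.55 on the log2 scale (west over east). SIG5-like was at -0.21 (SE 0.14). At ZT8 the 7 members lay between 0.63 and 0.90. The fit called 3 members lower on the west at ZT0 (0.0233% of all genes), 5 with the replicate block, 2 at ZT4 (0.128%), and 5 higher on the west at ZT8 (0.708%). The choice of the genes shaped these counts, so nothing is read from them.

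At ZT20, in the dark and outside the times used to choose the genes, the east side was again the higher one. ELIP2-like b was at 20.6, 21.6, 17.6, 14.5, 21.6 and 31.1 CPM in the 6 east libraries and at 8.95, 6.92, 7.41, 6.02, 8.77 and 2.84 CPM in the 6 west libraries. ELIP1-like c was at 70.3, 64.6, 56.2, 37.8, 62.1 and 76.6 CPM on the east and 35.5, 30.1, 33.7, 24.6, 26.4 and 16.7 CPM on the west. Neither pair of ranges overlapped, and the same held for ELIP2-like a and ELIP2-like c, 4 of the 7 members, while 0.597% of all genes had ranges apart with the east higher. ELIP1-like a was at 1.23 to 7.63 CPM on the east and 0.319 to 1.77 CPM on the west, with the lowest east library below 3 of the west.

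By edgeR, 5 of 7 members were lower on the west at ZT20, against 0.918% of all genes. The log2 differences were -2.13 (SE 0.32, adjusted p = 1.4e-05) for ELIP1-like a, -1.12 (SE 0.18, adjusted p = 3.35e-05) for ELIP1-like c, and -2.12 (SE 0.53, adjusted p = 0.0115), -1.57 (SE 0.22, adjusted p = 6.07e-06) and -1.41 (SE 0.22, adjusted p = 2.38e-05) for ELIP2-like a, b and c. ELIP1-like b was at -0.85 (SE 0.29, adjusted p = 0.0858) and SIG5-like at -0.43 (SE 0.14, adjusted p = 0.0807). With the replicate block, which pairs the sides by number, both passed too, at -0.77 (SE 0.21, adjusted p = 0.0131) and -0.42 (SE 0.10, adjusted p = 0.00547), so that 7 of 7 were lower. For ELIP2-like a the west libraries held 0 to 4.09 counts, and its call was lost without any one replicate number. With the ZT20 libraries fitted alone 3 of 7 passed, ELIP1-like a being at an adjusted p of 0.0579. The shares of all genes called with the block and with that fit are not given here, so these counts show only whether the members' calls held. The summed level was 143 ± 37.1 CPM (SD, n = 6) on the east and 56.8 ± 15.02 CPM on the west, 2.51-fold apart. The photosynthesis markers summed to 277 to 386 and 221 to 325 CPM at that time, with 0 of 8 called, and the vascular markers to 615 to 842 and 423 to 823 CPM, with 1 of 10 lower on the west. Their part was not tested.

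At ZT12 ELIP1-like c was higher on the west by 0.70 (SE 0.19, adjusted p = 0.0386), with 4.52 to 9.63 CPM on the east and 7.005 to 14.97 CPM on the west, and the other 6 did not pass, where 0.635% of genes were called higher. That call was lost when any replicate number was left out (0.61 to 0.83). At ZT16, with 3.43% of genes called higher and 2.35% lower, no member passed, and the ELIP-like differences ran from -1.31 to 0.70. Members lowest in counts carried the widest errors there.

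At ZT20 the log2 difference of ELIP1-like c was -0.94 on day 1 and -1.35 on day 2, and that of ELIP2-like b -1.36 and -1.81. No member passed a test of a different side effect between days at any of the 6 times, where at most 2 genes of 34315 did by edgeR. The members were nonetheless higher on day 2 at ZT4 over both sides. ELIP2-like c was at 105 to 130 CPM on the east and 79.5 to 102 CPM on the west on day 1, and at 182 to 217 and 133 to 209 CPM on day 2, a log2 difference of 0.82 (SE 0.18, adjusted p = 0.00318). In all, 6 of 7 passed, at 0.50 to 0.82, against 2.62% of genes, and ELIP1-like c was at 0.41 (SE 0.14, adjusted p = 0.0665). No member passed between days at ZT0, ZT8, ZT16 or ZT20, and at ZT12 ELIP1-like c alone did, at -0.70, with 4.6% of genes called lower.

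**Figure D4:**
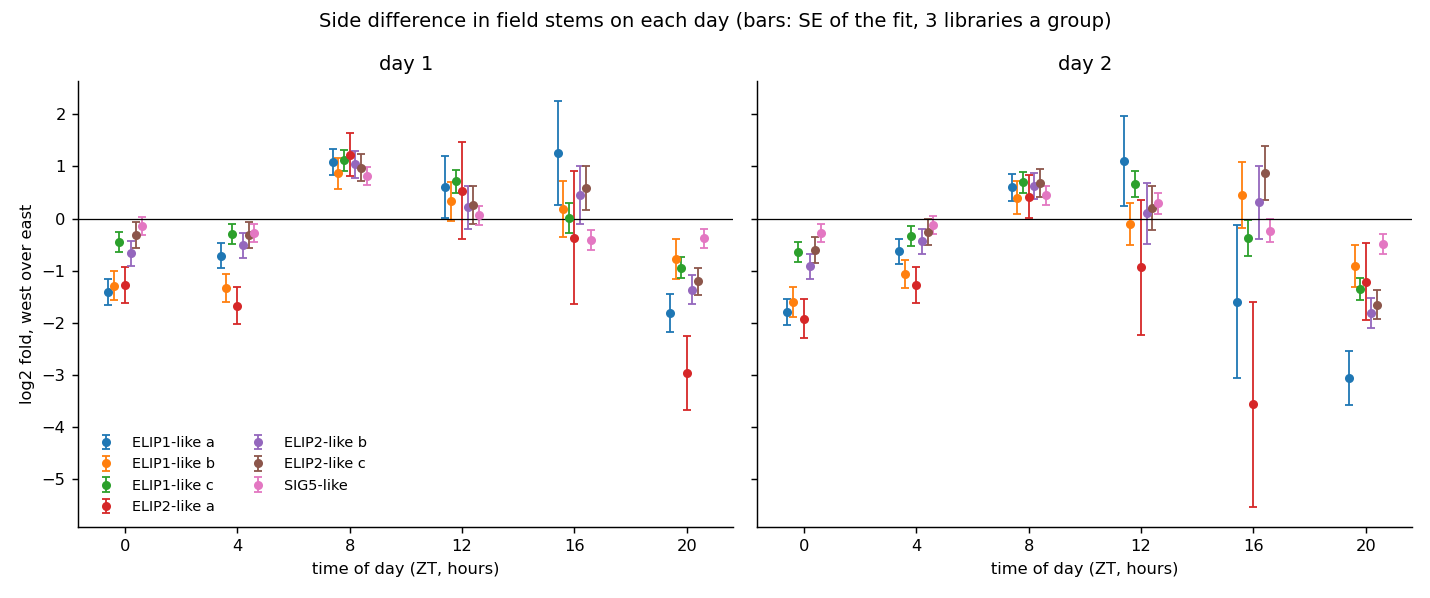
Log2 difference, west over east, of each member at 6 times of day, on day 1 (left) and day 2 (right), with the standard error of the edgeR fit (3 libraries per group). All members lie below 0 at ZT0, ZT4 and ZT20 and above 0 at ZT8 on both days, with wide errors at ZT12 and ZT16, where counts are low.

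The other 6 genes of the term come from tables made mostly of differentially expressed genes, so their values describe those genes only. Their changes on the lit side are a description with no test. Of these 6, the ELIP2 homologs Ha412HOChr03g0133631 and Ha412HOChr03g0133751 followed the members. On the lit side at ZT4 they were at 498 to 1156 and 576 to 1217 CPM and on the shaded side at 31.6 to 171 and 48.1 to 247 CPM. From ZT3 they rose by 5.27 (SE 0.41) and 4.78 (SE 0.42) on the lit side and by 2.29 (SE 0.37) and 2.30 (SE 0.38) on the shaded side. In the field they were lower on the west at ZT20, by 1.21 (SE 0.23, adjusted p = 0.000424) and 1.24 (SE 0.25, adjusted p = 0.00131). Ha412HOChr03g0133641, not annotated in the sources used here, was at 0 in 99 phototropism libraries and did not pass the field filter. Ha412HOChr11g0496911 was 1.28 (SE 0.43) above ZT3 on the lit side at ZT4 and Ha412HOChr16g0760571 1.57 (SE 0.50).

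The term's other sigma factor, the SIG6 homolog Ha412HOChr13g0601281, had no called change at ZT4 on the lit side, at -0.12 (SE 0.15), and was at 0.73 (SE 0.15) at ZT5. Sigma factor genes outside the term, homologs of SIG1, SIG2 and SIG3, were measured as 6 genes, all called higher on the lit side at ZT7, by 0.39 to 1.80, where 11.8% of all genes were called higher. These 6 come from tables made mostly of differentially expressed genes, so the count describes those genes only. At ZT4 only the SIG1 homologs Ha412HOChr08g0346181, at 2.09 (SE 0.15), and Ha412HOChr05g0219311, at 0.87 (SE 0.16), had risen from ZT3. The change of SIG5-like, 3.01, was above those of these 6 and of the SIG6 homolog.

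Genes of light perception and signaling were measured as 14 genes. The HY5 homologs, whose Arabidopsis counterpart is a transcription factor that activates light-induced genes, rose at ZT4 on the lit side by 3.30 (SE 0.22), 3.28 (SE 0.21) and 4.74 (SE 0.25) for Ha412HOChr00c02709g0867161, Ha412HOChr02g0080481 and Ha412HOChr13g0604031, and on the shaded side by 1.70 (SE 0.21), 1.42 (SE 0.20) and 2.86 (SE 0.24). The homolog of RUP2, a repressor of UV-B signaling, Ha412HOChr15g0742951, rose by 5.52 (SE 0.54) and 2.08 (SE 0.56). At ZT7, 10 of the 14 were higher on the lit side and 1 lower, the homolog of the blue light receptor PHOT1, where 11.8% of all genes were called higher and 11.4% lower. At ZT20 in the field 0 of 14 passed by edgeR, where 2.63% of genes were called higher and 0.918% lower on the west. These homologs come from the same tables, and the same limit holds for their counts.

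Of 18 genes outside the term that lie between and beside the chromosome 3 members by number, 17 were tested. At ZT7 5 were higher on the lit side and 3 lower, with a median log2 difference of 0.06 (0.01 over all genes, with 11.8% called higher and 11.4% lower). The highest were Ha412HOChr03g0133581, at 5.03 (SE 0.49), and Ha412HOChr03g0133711, at 3.40 (SE 0.93), both singled out after their values were seen. At ZT20 in the field 2 neighbors were higher on the west and none lower.

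Across the 18 phototropism and 24 field group means of log2 CPM, centered within each experiment, members correlated pairwise at r of 0.83 to 0.99. These points share libraries, so r is a description. The lowest was between ELIP1-like b and SIG5-like, and the highest between ELIP2-like b and ELIP2-like c. Of 27504 other genes, the most like the mean of the chromosome 3 members was Ha412HOChr05g0240691 (r = 0.98), matched to the fatty acid desaturase FAD4, followed by Ha412HOChr07g0291011 (r = 0.97), matched to the photolyase PHR1, which repairs ultraviolet damage in DNA. Ha412HOChr12g0552601, Ha412HOChr13g0586461 and Ha412HOChr12g0569341 followed (r = 0.95 to 0.96). For SIG5-like the first was also Ha412HOChr05g0240691 (r = 0.97), ahead of Ha412HOChr13g0610681, Ha412HOChr01g0011121, Ha412HOChr14g0659061 and Ha412HOChr16g0791221 (r = 0.97). SIG5-like itself correlated with the chromosome 3 mean at r = 0.96.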

How the data were processed

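Per the study's methods and the submitters' processing notes, the authors quality filtered 50-base single-end reads and quantified them with Salmon 1.4.0 against transcripts taken with Cufflinks 2.2.1 from the Ha412HOv2.0 assembly. The deposited tables hold estimated counts per gene. The deposited expression signal beside them is the CPM that the authors computed with edgeR and TMM factors. Estimated counts were rounded to whole numbers here for the tests, and levels in CPM were computed from the counts with TMM. Total counts ranged from 4485611 to 28394943 per phototropism library and from 5074975 to 30834562 per field library. The deposited CPM were used for an alternative test and for the check that both scales match.

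Tested genes reached 10 counts in 6 or more phototropism libraries, or in 3 or more field libraries. Each experiment was fitted with edgeR 4.0.16 (R 4.3.3) in a quasi-likelihood model with 1 mean per side and time of day, the 2 field days combined. Adjusted p are Benjamini-Hochberg values over all tested genes, and a gene was called at 0.05. Standard errors were derived from the fitted change and its F statistic. A cosine with a period of 24 h was fitted to the field CPM. Genes most like the members were taken by Pearson's r over group means, among genes whose mean reached 1 CPM. A floor of 3 counts per library marks values too low to compare. The code was checked on simulated counts.

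Replicate numbers were checked for pairing. In phototropism the same-numbered lit and shaded libraries deviated together in 54 of 54 pairs (r over 0.1 in each, median 0.506, lowest 0.288), so the numbers pair those libraries. In the field both sides came from the same plants per the study's methods, which do not say that a number marks the same plants. There 31 of 36 pairs correlated over 0.1 (median 0.247, lowest 0.0433), and 35 of 36 matched best with their own number. Fits with the replicate as a block were run for both. No label names separate plants behind each library beyond the pools, so p-values measure the spread between these libraries.

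The 7 members and all gene lists were chosen with earlier results of these data known. Named genes are the members, the other genes of the term, and in each further list those given with values. Alternatives were RLE scaling, no filter, leaving out each replicate, the block, single times, single days, limma 3.58.1 on log2(deposited CPM + 1), and DESeq2 1.42.0. Columns of the authors' own comparisons were not used. Sequences are not shown, since no genome of this assembly was used here.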

Additional observations from a re-analysis of the deposited data

Results flagged for a closer look

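Within groups of 6 libraries, 22 of 210 groups had 1 library farther from the rest than Dixon's test allows. The members move together and share libraries, so a single library can be flagged for several of them. The groups are therefore not independent, and no chance rate is set beside this count. In phototropism, replicate 2 stood high before the lamps on the shaded side, at 5.94 CPM for ELIP1-like a, 1.45 for ELIP2-like a, 20.5 for ELIP2-like b, 34.4 for ELIP2-like c and 75.8 for SIG5-like, and on the lit side at 27.6 for ELIP2-like c and 63.9 for SIG5-like. The same replicate stood high on the lit side at ZT9, at 220.4 CPM for ELIP1-like a, 362 for ELIP1-like b and 329 for ELIP2-like c, at ZT4 at 762 CPM for ELIP2-like b, and on the shaded side at ZT5 at 188 CPM for ELIP1-like c. Replicate 3 stood high on the shaded side at ZT9, at 14.6 CPM for ELIP1-like b and 15.2 for ELIP2-like c, at ZT12 at 3.36 CPM for ELIP2-like b and at ZT15 at 9.38 CPM for ELIP1-like b. SIG5-like was high in replicate 5 on the lit side at ZT5 (413 CPM) and in replicate 6 on the shaded side at ZT15 (22.8 CPM).

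In the field, ELIP1-like a stood high in day 1 replicate 1 on the west at ZT12 (1.11 CPM), ELIP2-like a in day 1 replicate 3 on the west at ZT16 (0.0910 CPM, the other 5 at 0), ELIP2-like c in day 1 replicate 3 on the east at ZT0 (346 CPM) and ELIP1-like b in day 2 replicate 1 on the west at ZT4 (101 CPM).

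By the fit given in the report, the side difference changed between times, a description since side differences chose the genes. From ZT4 to ZT7 it grew by 2.202, 2.05 and 2.00 on the log2 scale for ELIP1-like a, b and c and by 2.18, 1.96 and 1.75 for ELIP2-like a, b and c. From ZT7 to ZT15 it decreased by 1.36 for SIG5-like.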

How the results depend on the processing

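Of 503 counts of called members under an alternative, 456 stayed within 1.5 times the main count, as did all 49 with no filter. Counts in this section stand without the share of all genes called by each alternative, so they show only whether the members' calls held. No fold of a member reversed, and 632 of 683 stayed on the same side of the threshold. With RLE scaling and with DESeq2, 2 members were called lower on the shaded side at ZT18 against ZT3. By limma, 0 were called higher there at ZT18 and at ZT21. For the change of side difference from ZT7 to ZT15, DESeq2 called 2 members lower, limma 6 and the replicate block 3. From ZT15 to ZT21 limma called 1. The block, whose pairs are given under the processing, also added SIG5-like from ZT4 to ZT7 and, in the field, gave 5 members lower on the west at ZT0, with ELIP1-like b (-0.77) and SIG5-like (-0.42) passing at ZT20. It moved no other count by over 1.5 times.

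Day 1 alone called 1 member lower on the west at ZT4, 0 higher at ZT12, 1 higher and 2 lower on the east from ZT0 to ZT4, and 4 lower on the west from ZT4 to ZT8. Day 2 alone called 0 at ZT4, 0 at ZT8, 0 at ZT12, 0 lower from ZT0 to ZT4 on the east and on the west, and 3 lower from ZT12 to ZT16 on each. Libraries of a single time gave 0 at ZT12 and 3 at ZT20. Leaving out each replicate number gave 1 to 2 called at ZT0, 0 to 2 at ZT4, 0 to 4 at ZT8 and 0 at ZT12 for the field sides, 1 to 3 higher on the east from ZT0 to ZT4 and 3 to 5 lower from ZT12 to ZT16. In phototropism it gave, on the shaded side, 0 to 2 lower at ZT7, 0 to 1 higher and 1 to 2 lower at ZT18 and 0 to 2 higher at ZT21, and for the side change 1 to 6 from ZT4 to ZT7 and 1 to 2 from ZT7 to ZT15. Of the 5 most alike genes, those found from phototropism alone shared 0 with the list for the chromosome 3 members and 2 with that for SIG5-like, and those from the field alone 1 and 2. With log2(CPM + 1) the west peak of ELIP1-like a moved to 4.22 h and those of ELIP2-like c to 1.63 h (east) and 2.43 h (west). The causes were not tested. Low counts limit ELIP2-like a, under 3 counts in 31 phototropism and 23 field libraries.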
